A study of Mus musculus with 6 samples.

Results

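The mitochondrial solute carrier family SLC25 is the largest family of transporters in the inner mitochondrial membrane, and its members in these data were all protein coding genes of the deposited table whose symbol is Slc25a followed by a number. Of the 17924 genes in the table, 14362 were protein coding and 40 of these were SLC25 genes. Slc25a2, Slc25a18, Slc25a21, Slc25a31, Slc25a41, Slc25a48 and Slc25a54 were not analysed here. The values come from RNA-seq of dermal fibroblasts of newborn (P0) C57BL/6J mice that had been kept in adipocyte differentiation medium for 14 days, and the comparison asks which genes depend on Nelfb, a subunit of the negative elongation factor that holds RNA polymerase II in a paused state near the start of genes. CTL cells were Pdgfra-Cre+ with the Nelfb alleles fl/wt or wt/wt, without a record of which of these 2 genotypes each library had, and Nelfb-/- cells were Pdgfra-Cre+ with Nelfb fl/fl. Both groups therefore carried the Cre, which is driven by the Pdgfra promoter and acts in preadipocyte lineages and other Pdgfra-expressing cells. Each group was sequenced as 3 biological replicates.

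SLC25 carriers move nucleotides, phosphate, carboxylates, amino acids, carnitine esters, cofactors and metal ions between the cytosol and the matrix, usually by exchanging one solute for another. They are built from repeated pairs of membrane-spanning helices, are encoded in the nucleus and are brought into the inner membrane by dedicated import machinery. In adipocytes they link fatty acid oxidation, the export of citrate for lipid synthesis, ATP supply and the breakdown of branched-chain amino acids.

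Values are given in CPM, a gene's reads divided by the total over the table and multiplied by 1e+06, and they are not corrected for gene length. The libraries of a group are given in the order of replicates 1, 2 and 3. The 6 libraries held 17.2 M to 29.4 M reads (M, 1e+06), and 3 reads, the floor of detection, were worth 0.102 to 0.175 CPM. Only genes whose mean reached 10 reads (0.448 CPM) entered the limma test, which left 16251 genes and 39 of the 40 SLC25 genes. A gene was called past the threshold at an adjusted p of at most 0.05 (Benjamini-Hochberg over all genes tested) and a change of at least 2-fold. Log2 fold changes are Nelfb-/- relative to CTL. Nelfb itself had 17.3, 19.6 and 22.3 CPM in the CTL libraries and 5.50, 3.90 and 5.55 CPM in the Nelfb-/- libraries, with no overlap (log2 fold change -1.99, adjusted p = 0.0050, limma). CTL replicate 3 and Nelfb-/- replicate 1 stood apart from the other libraries of their groups on the second principal component, which held 27.7% of the variance, at scores of -74.9 and 79.2. Adipocyte markers were present in every library, with a summed level of 7 genes between 21924 and 35499 CPM in CTL and of 13846 to 22041 CPM in Nelfb-/- cells. These sums overlapped narrowly, and 0 of the 7 were downregulated with limma. At Plin1, Fabp4 and Pparg, though, every Nelfb-/- library was below every CTL library, as at 16.1% of all genes tested. Their log2 fold changes were -1.02, -1.04 and -0.51 (adjusted p = 0.125, 0.239 and 0.111, limma). Adipoq (-1.07) and Lpl (-0.50) overlapped between groups, Cidec was at 0.03, and Lep was upregulated (log2 fold change 5.26, adjusted p = 0.0136). Of the markers of other cell types, 5 of 6 tested for macrophages, 3 of 4 for skeletal muscle, 5 of 5 for melanocytes, 2 of 3 for Schwann cells and 1 of 2 for keratinocytes were upregulated in Nelfb-/- cells, 1 for Schwann cells (Mbp) was downregulated, and 0 of 3 for endothelial cells passed. The sum of the macrophage markers was 155 to 606 CPM in CTL, against 1570 to 4953 CPM in Nelfb-/- cells, that of the skeletal muscle markers 6.81 to 9.01 and 32.8 to 72.7 CPM, that of the melanocyte markers 1.22 to 1.43 and 30.3 to 72.1 CPM, that of the Schwann cell markers 41.9 to 57.1 and 86.0 to 109 CPM, and that of the keratinocyte markers 0.306 to 0.653 and 1.42 to 9.91 CPM. The sum of 6 fibroblast markers overlapped between groups, at 2455 to 11431 CPM in CTL and 5976 to 25005 CPM in Nelfb-/- cells, and 2 of the 6 were upregulated. These are bulk samples, so fewer cells of a type and less RNA per cell cannot be told apart, and the part of other cell types in the SLC25 values was not tested.

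Across the family more genes were lower than higher in Nelfb-/- cells, and 7 of the 39 genes tested passed the threshold. Slc25a34, Slc25a35, Slc25a20 and Slc25a39 were downregulated, and Slc25a13, Slc25a45 and Slc25a24 were upregulated. The 4 downregulated genes are 10.3% of the family, where 3.64% of all genes tested were downregulated, and the 3 upregulated genes are 7.69%, where 7.58% of all genes tested were upregulated. Another 6 genes, all lower in Nelfb-/- cells, had an adjusted p of at most 0.05 with a change under 2-fold. They include Slc25a5, Slc25a16, Slc25a22, Slc25a42 and Slc25a46. Without the limit on the fold 10 genes of the family (25.6%) passed downwards, against 5.83% of all genes tested, and 3 (7.69%) passed upwards, against 9.96%. An unadjusted p under 0.05 was found at 22 of the 39 genes and at 32.5% of all genes tested. The log2 fold change was below 0 at 27 of the 39 genes (69.2%) and at 45.4% of all genes tested. Its median was -0.43 over the family and 0.07 over all genes tested. The number of SLC25 genes past the threshold depended on the libraries, since it was 4 without CTL replicate 1, 3 without CTL replicate 2, 4 without Nelfb-/- replicate 2 and 1, Slc25a34, without Nelfb-/- replicate 3, whereas it was 9 without CTL replicate 3. Over all genes tested the 592 lower and 1232 higher genes went to 136 and 290 without Nelfb-/- replicate 3 and to 776 and 1704 without CTL replicate 3.

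All Nelfb-/- libraries were below all CTL libraries at 17 SLC25 genes (43.6%), where this was so at 16.1% of all genes tested, and above every CTL library at 5 (12.8%), where it was so at 22%. Summed over the 40 genes, the family took 3019, 3046 and 3058 CPM in the CTL libraries and 2081, 2296 and 2149 CPM in the Nelfb-/- libraries. The sums did not overlap between groups, and the Nelfb-/- mean of 2175 ± 110 CPM (SD, n = 3) was 71.5% of the CTL mean of 3041 ± 19.7 CPM. This sum is ruled by few genes, since the 5 most abundant members of a library made up 44.9% to 56.3% of it.

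**Figure D1:**
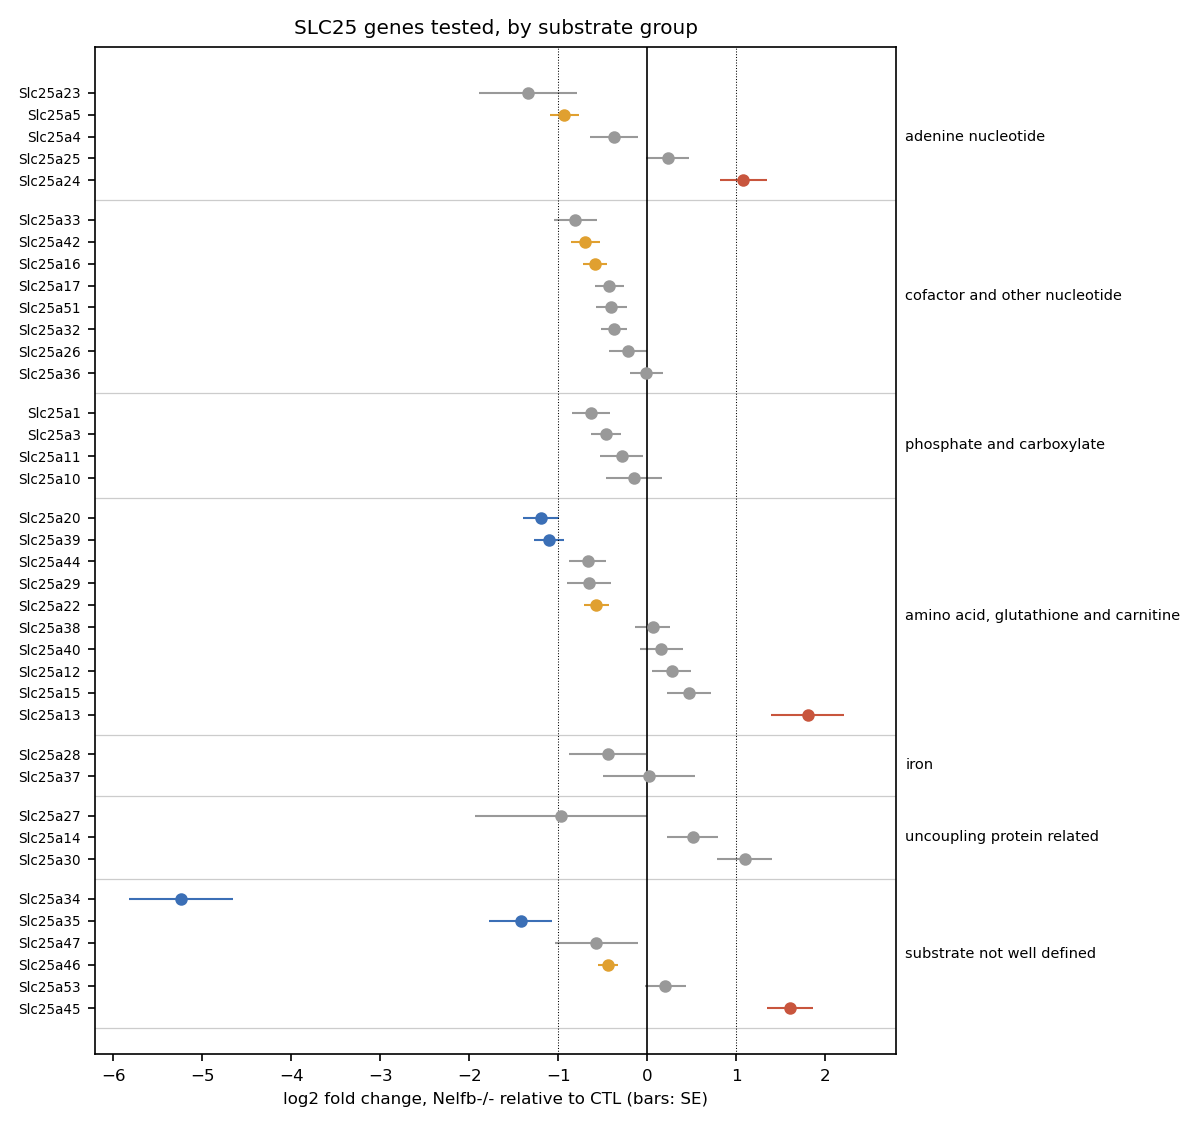
Log2 fold change of 38 SLC25 genes tested (x axis, Nelfb-/- relative to CTL, points with SE bars, 3 libraries per group), grouped by substrate (y axis). Blue and red points passed the threshold downwards and upwards, orange points had an adjusted p of at most 0.05 under 2-fold, grey points passed neither, and dotted lines mark 2-fold. All 8 cofactor and other nucleotide carriers shown and all 4 phosphate and carboxylate carriers lie below 0, and Slc25a34 lies farthest from 0, at -5.24.

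The RefSeq promoters of the genes past the threshold, apart from Slc25a35, are shown here so that the lower and the higher genes can be compared base by base. Windows of 250 bases before the start of transcription were read on GRCm38.p6, and 40 such windows matched 31 of the 40 SLC25 genes. Any base that GENCODE annotates as exon was left out of what is printed, which is why some windows are shorter. Capitals mark the GC box, the letters GGGCGG on either strand (CCGCCC when read on the other strand), a motif bound by Sp1 and its relatives. The 3 downregulated genes come first.
Slc25a34, chr4:141623835-141624084, minus strand: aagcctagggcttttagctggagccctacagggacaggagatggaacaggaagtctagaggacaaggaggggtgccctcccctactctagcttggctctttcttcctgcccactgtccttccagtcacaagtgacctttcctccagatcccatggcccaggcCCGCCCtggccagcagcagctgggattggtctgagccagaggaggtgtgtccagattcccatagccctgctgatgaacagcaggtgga
Slc25a39, chr11:102407545-102407767, minus strand: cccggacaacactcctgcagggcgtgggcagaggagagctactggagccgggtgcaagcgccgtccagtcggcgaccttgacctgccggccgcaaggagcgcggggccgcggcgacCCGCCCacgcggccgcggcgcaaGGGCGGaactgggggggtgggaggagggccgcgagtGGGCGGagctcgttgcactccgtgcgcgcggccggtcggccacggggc
Slc25a20, chr9:108661886-108662087, plus strand: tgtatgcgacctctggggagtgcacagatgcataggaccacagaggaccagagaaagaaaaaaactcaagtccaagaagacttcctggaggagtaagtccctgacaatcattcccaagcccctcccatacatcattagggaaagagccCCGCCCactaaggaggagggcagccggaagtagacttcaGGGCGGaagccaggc
The 3 upregulated genes follow.
Slc25a45, chr19:5877572-5877807, plus strand: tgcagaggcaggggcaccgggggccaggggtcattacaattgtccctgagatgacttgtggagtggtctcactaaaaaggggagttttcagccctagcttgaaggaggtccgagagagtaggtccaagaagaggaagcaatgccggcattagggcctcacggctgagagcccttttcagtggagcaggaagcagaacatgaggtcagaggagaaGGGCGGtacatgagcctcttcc
Slc25a13, chr6:6217174-6217423, minus strand: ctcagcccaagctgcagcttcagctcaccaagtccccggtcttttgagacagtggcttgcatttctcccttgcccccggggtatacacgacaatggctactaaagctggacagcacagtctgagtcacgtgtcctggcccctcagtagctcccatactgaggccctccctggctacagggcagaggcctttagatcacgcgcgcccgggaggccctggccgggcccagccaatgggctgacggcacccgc
Slc25a24, chr3:109122899-109123148, plus strand: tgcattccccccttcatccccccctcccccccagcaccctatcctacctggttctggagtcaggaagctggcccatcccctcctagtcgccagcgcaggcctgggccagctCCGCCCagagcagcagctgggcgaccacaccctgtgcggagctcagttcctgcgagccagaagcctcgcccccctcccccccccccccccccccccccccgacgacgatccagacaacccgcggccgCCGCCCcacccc
A GC box stood in the window of Slc25a34, Slc25a39, Slc25a20, Slc25a45 and Slc25a24, and none was found in that of Slc25a13. The box of Slc25a34 lay 88 to 83 bases before the start. The printed stretch of Slc25a39 holds 3 boxes and lies within the longer gene span that GENCODE gives for Slc25a39. Of the 40 SLC25 windows, 30 (75.0%) held a GC box, from 23 of the 31 genes, while 55.5% of 14314 windows of genes tested and 32.7% of all 32851 windows held one. The median GC content was 57.8% for the SLC25 windows, 59.6% for those of genes tested and 52.4% for all. The letters TCAAGGTCA (an estrogen-related receptor element) and AGGTCA repeated after 1 base (a direct repeat that PPARG and RXR can bind) were in 0 of the 40 windows. They were in 31 and 5 of the 14314 windows of genes tested (0.2% and 0.0%). At such shares 40 windows are too few to expect a match. The letters GCGCA and GCGC 1 base apart, an NRF1 element, were in 1 window, that of Slc25a3 (2.5%), and in 7.4% of the windows of genes tested. All motifs were searched on both strands, and a match is a description of letters and not of binding.

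Among carriers whose substrate is not well defined, Slc25a34 had the largest change of the family. Slc25a34 (ENSMUSG00000040740, chromosome 4 from 141618824 to 141623821, minus strand) had 9.79, 7.65 and 31.0 CPM in CTL, against 0.190, 0.407 and 0.367 CPM in Nelfb-/- cells. The 3 Nelfb-/- libraries thus held 4, 7 and 9 reads of the gene, just above the floor, and the 3 CTL libraries held 217, 164 and 912 reads. CTL replicate 3 was highest and the groups were far apart. The Nelfb-/- mean was 1.99% of the CTL mean, with a log2 fold change of -5.24 (SE 0.58, adjusted p = 0.0054, limma). Without CTL replicate 3 the Nelfb-/- mean was 3.69% of the CTL mean. The gene passed the threshold under all 14 alternatives of processing that were run, with a log2 fold change between -5.63 and -3.45, the latter with a pseudocount of 1 CPM, and an adjusted p between 0.0039 and 0.0333. Of 5 markers of brown adipocytes that were measured, Cidea, Cox7a1 and Cox8b were downregulated too, and the sum of the 5 was 33.2 to 67.7 CPM in CTL, against 11.2 to 18.1 CPM in Nelfb-/- cells. Cox7a1, a subunit of cytochrome c oxidase, had 12.6, 7.51 and 37.1 CPM in CTL, against 0.332, 1.63 and 0.898 CPM in Nelfb-/- cells. Like Slc25a34 it was highest in CTL replicate 3 and lowest in CTL replicate 2, whereas Cidea (10.96, 7.23 and 10.03 CPM in CTL) and Cox8b (7.04, 2.85 and 6.70 CPM in CTL) were highest in CTL replicate 1. The other two, Prdm16 and Ppargc1a, did not pass (log2 fold change 0.16 and -0.99, adjusted p = 0.738 and 0.289, limma). Ucp1 was not analysed here, and the part of such cells in the change of Slc25a34 was not tested.

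Slc25a35 (ENSMUSG00000018740, chromosome 11 from 68968131 to 68974365, plus strand), the closest relative of Slc25a34, had 17.6, 16.1 and 11.7 CPM in CTL, against 7.98, 3.37 and 6.31 CPM in Nelfb-/- cells. The groups did not overlap, and the gene was downregulated with a log2 fold change of -1.42 (SE 0.35, adjusted p = 0.0415, limma). Its call was lost when the variance had no abundance trend (adjusted p = 0.0531), and when CTL replicate 1, CTL replicate 2, Nelfb-/- replicate 2 or Nelfb-/- replicate 3 was left out (adjusted p = 0.143, 0.139, 0.0759 and 0.115, limma). Rangrf overlaps Slc25a35 on the other strand and stood at 0.558 to 2.87 CPM, and whether the counting used strand is not stated.

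Slc25a45 (ENSMUSG00000024818, chromosome 19 from 5877808 to 5885878, plus strand) went the other way. It had 4.10, 2.71 and 3.71 CPM in CTL, against 13.2, 8.85 and 10.2 CPM in Nelfb-/- cells. Every Nelfb-/- library was more than 2-fold above every CTL library, with a log2 fold change of 1.60 (SE 0.26, adjusted p = 0.0122, limma). Of the 14 alternatives, the call was lost only without Nelfb-/- replicate 3 (adjusted p = 0.0657). Slc25a46, which is unusual in the family because its protein sits in the outer membrane and takes part in mitochondrial fusion, was the most abundant gene of this group. It had 84.7, 84.2 and 79.4 CPM in CTL, against 63.4, 62.0 and 57.9 CPM in Nelfb-/- cells. The groups did not overlap and the spread within each was small, yet the log2 fold change of -0.44 (adjusted p = 0.0478, limma) stayed at most 0.05 in adjusted p under only 5 of 14 alternatives. It was above 0.05 without CTL replicate 1 (0.173), CTL replicate 2 (0.172), Nelfb-/- replicate 2 (0.134) or Nelfb-/- replicate 3 (0.206), and without a filter on low values (0.0539). Slc25a47 and Slc25a53, with mean levels of 1.94 and 4.52 CPM over the 6 libraries, did not pass (log2 fold change -0.57 and 0.20). Slc25a43 was the 1 gene of the family under the limit for testing, with 7, 9 and 3 reads in CTL and 20, 6 and 13 reads in Nelfb-/- cells.

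**Figure D2:**
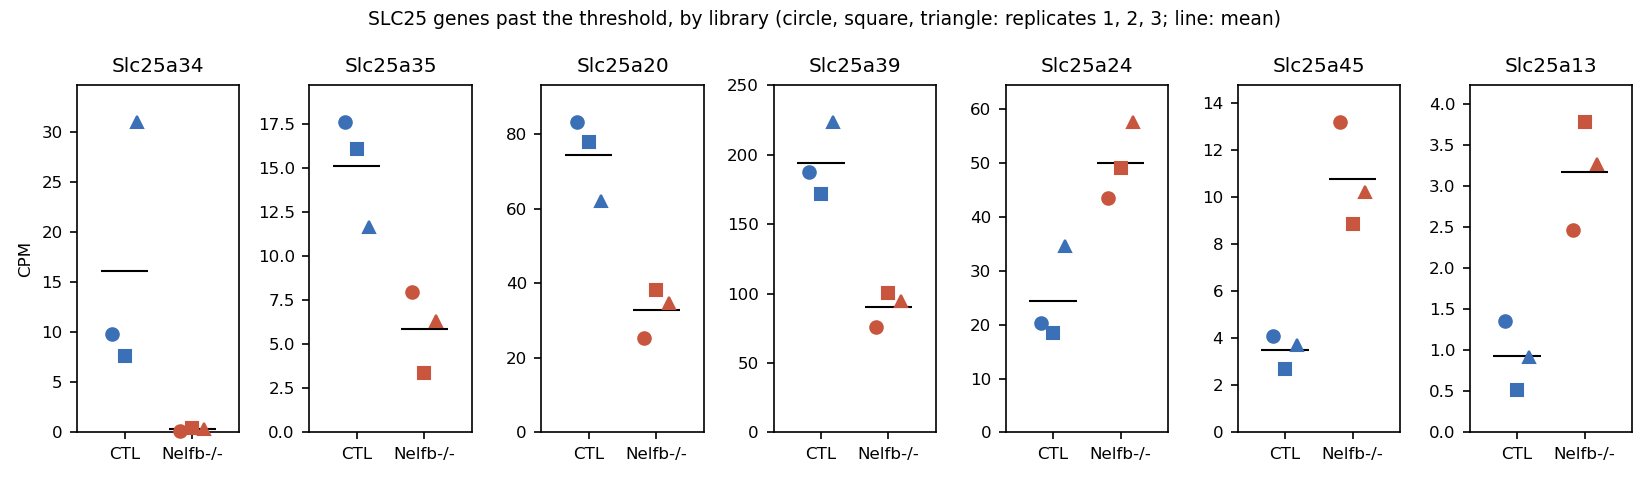
CPM (y axis, from 0, own scale for each gene) of the 7 SLC25 genes past the threshold in the 3 CTL (blue) and 3 Nelfb-/- (red) libraries, with the group mean as a line. Circles, squares and triangles are replicates 1, 2 and 3, and in no panel do the groups overlap.

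Of the carriers for amino acids, glutathione and carnitine, 10 were tested, and 2 were downregulated (3.64% of all genes tested) and 1 was upregulated (7.58%). Slc25a20, the carnitine-acylcarnitine carrier that brings long-chain fatty acids into the matrix for oxidation (ENSMUSG00000032602, chromosome 9 from 108662088 to 108684641, plus strand), had 83.3, 77.9 and 62.2 CPM in CTL, against 25.4, 38.1 and 34.6 CPM in Nelfb-/- cells. The groups were well apart, with a log2 fold change of -1.20 (SE 0.20, adjusted p = 0.0139, limma). The call was lost without CTL replicate 1, CTL replicate 2 or Nelfb-/- replicate 3 (adjusted p = 0.0599, 0.0615 and 0.0636, limma). Enzymes on the same path did not all follow it. Cpt1b and Crat, which form acylcarnitine or acetylcarnitine, were downregulated with log2 fold changes of -2.74 (SE 0.37, adjusted p = 0.0080, limma) and -1.30 (SE 0.32, adjusted p = 0.0400, limma), whereas Cpt1a, the isoform of carnitine palmitoyltransferase found in most tissues, was upregulated (1.13, SE 0.28, adjusted p = 0.0389, limma), and Cpt2 did not pass (-0.74, adjusted p = 0.115).

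Slc25a39, which is needed for the import of glutathione (ENSMUSG00000018677, chromosome 11 from 102402985 to 102407946, minus strand), was the most abundant gene of the group and the fourth of the family by level per length in CTL. It had 188, 172 and 224 CPM in CTL, against 76.1, 101 and 94.6 CPM in Nelfb-/- cells. The lowest CTL library was well above the highest Nelfb-/- library, with a log2 fold change of -1.11 (SE 0.17, adjusted p = 0.0112, limma). The call was lost in 3 of 6 fits with 1 library left out. The change was just under 2-fold without CTL replicate 3 (adjusted p = 0.0147) and without Nelfb-/- replicate 1 (-0.99, adjusted p = 0.0181), and without Nelfb-/- replicate 3 the adjusted p was 0.0585. Its closest relative Slc25a40 had 9.60, 8.97 and 15.1 CPM in CTL, against 11.1, 12.1 and 13.5 CPM in Nelfb-/- cells. The Slc25a40 groups overlapped, and its log2 fold change of 0.16 did not pass (SE 0.24, adjusted p = 0.689, limma).

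The aspartate-glutamate carriers Slc25a12 and Slc25a13 belong to the malate-aspartate shuttle, which brings reducing equivalents from the cytosol into the matrix. Slc25a13 (ENSMUSG00000015112, chromosome 6 from 6041218 to 6217173, minus strand) had 1.35, 0.513 and 0.918 CPM in CTL, against 2.47, 3.78 and 3.26 CPM in Nelfb-/- cells, which came from 30, 11 and 27 reads and from 52, 65 and 80 reads. The groups did not overlap, and the gene was upregulated with a log2 fold change of 1.80 (SE 0.41, adjusted p = 0.0328, limma). The call was lost without CTL replicate 1, CTL replicate 2, Nelfb-/- replicate 2 or Nelfb-/- replicate 3 (adjusted p = 0.0507, 0.0897, 0.112 and 0.129, limma). Slc25a12 was more abundant, with 15.8, 12.1 and 19.2 CPM in CTL, against 20.8, 15.9 and 19.7 CPM in Nelfb-/- cells. Its groups overlapped and it did not pass (log2 fold change 0.27, adjusted p = 0.432, limma).

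Slc25a22, a carrier of glutamate (ENSMUSG00000019082, chromosome 7 from 141429744 to 141437892, minus strand), had 95.7, 102.8 and 80.0 CPM in CTL, against 64.6, 63.6 and 58.4 CPM in Nelfb-/- cells. It was lower in every Nelfb-/- library (log2 fold change -0.57, SE 0.14, adjusted p = 0.0407, limma), and the adjusted p was above 0.05 under 6 of 14 alternatives, which include leaving out CTL replicate 1 (0.148), CTL replicate 2 (0.156), Nelfb-/- replicate 2 (0.113) or Nelfb-/- replicate 3 (0.171). The remaining genes of the group did not pass either. They were Slc25a44, a carrier of branched-chain amino acids (log2 fold change -0.67, adjusted p = 0.0734), Slc25a29, a carrier of basic amino acids (-0.65, adjusted p = 0.125), Slc25a38, which imports glycine for heme synthesis (0.06), and Slc25a15, the ornithine carrier of the urea cycle (0.47). For Slc25a44 and Slc25a29 every Nelfb-/- library was below every CTL library, at 69.6 to 80.7 against 87.0 to 139 CPM and at 2.56 to 4.07 against 4.73 to 5.28 CPM.

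Of the 5 adenine nucleotide carriers tested, 1 was upregulated, where 7.58% of all genes tested were, and 0 were downregulated with limma at 2-fold, while 3 had an unadjusted p under 0.05. Slc25a5 encodes the adenine nucleotide translocase of proliferating and many other cells, which exchanges ADP for ATP (ENSMUSG00000016319, chromosome X from 36795651 to 36798807, plus strand), and it had the highest mean level per length of the family in both groups. It had 330, 375 and 456 CPM in CTL, against 195, 209 and 200 CPM in Nelfb-/- cells. The groups were far apart relative to the narrow range of the Nelfb-/- libraries, with a log2 fold change of -0.93 (SE 0.16, adjusted p = 0.0161, limma). The adjusted p was above 0.05 without CTL replicate 2, Nelfb-/- replicate 2 or Nelfb-/- replicate 3 (0.0658, 0.0566 and 0.0841 with limma), and without CTL replicate 1 the gene passed the threshold with 2-fold (log2 fold change -1.04, adjusted p = 0.0404). A processed pseudogene, Slc25a5-ps, was listed apart at 0.383 to 1.24 CPM, and how reads shared by such copies were counted is not stated.

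Slc25a4, the isoform that is most abundant in heart and muscle, had 215, 206 and 352 CPM in CTL, against 149, 224 and 215 CPM in Nelfb-/- cells. These values overlapped and did not pass (log2 fold change -0.37, adjusted p = 0.389, limma). Slc25a23, Slc25a24 and Slc25a25 encode calcium-regulated carriers that exchange ATP-Mg for phosphate and so set the size of the adenine nucleotide pool in the matrix. Slc25a24 (ENSMUSG00000040322, chromosome 3 from 109123149 to 109168457, plus strand) had 20.3, 18.5 and 34.6 CPM in CTL, against 43.5, 49.1 and 57.7 CPM in Nelfb-/- cells. The groups did not overlap and the gene was upregulated (log2 fold change 1.08, SE 0.26, adjusted p = 0.0389, limma). The call was lost without the abundance trend (adjusted p = 0.0571) and without CTL replicate 1, CTL replicate 2, Nelfb-/- replicate 2 or Nelfb-/- replicate 3 (adjusted p = 0.135, 0.130, 0.107 and 0.148, limma).

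Slc25a23 had 92.1, 83.9 and 25.3 CPM in CTL, against 37.0, 19.1 and 17.1 CPM in Nelfb-/- cells. CTL replicate 3 lay below Nelfb-/- replicate 1, and the log2 fold change of -1.34 had a wide error and did not pass (SE 0.55, adjusted p = 0.151, limma). Without CTL replicate 3 it passed, with a log2 fold change of -1.93 (adjusted p = 0.0192). Slc25a25 had 47.3, 52.7 and 41.0 CPM in CTL, against 38.5, 69.2 and 61.7 CPM in Nelfb-/- cells, which overlapped (log2 fold change 0.23, adjusted p = 0.559, limma).

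Of the carriers of cofactors and of other nucleotides, 8 are described here, and all 8 had lower mean log2 values in Nelfb-/- cells, with log2 fold changes from -0.81 to -0.01 and a median of -0.41. With limma 0 of the 8 reached the threshold with 2-fold, by voom weights too, 5 had an unadjusted p under 0.05 (32.5% of all genes tested) and 2 an adjusted p of at most 0.05 (5.83% of all genes tested downwards), and at 5 the Nelfb-/- libraries were all below the CTL libraries (16.1% of all genes tested). Slc25a42, a carrier of coenzyme A (ENSMUSG00000002346, chromosome 8 from 70184340 to 70212305, minus strand), had 60.2, 67.5 and 47.0 CPM in CTL, against 33.6, 35.7 and 37.4 CPM in Nelfb-/- cells (log2 fold change -0.70, SE 0.17, adjusted p = 0.0372, limma). Slc25a16, a relative of Slc25a42 that has also been tied to coenzyme A (ENSMUSG00000071253, chromosome 10 from 62920633 to 62946498, plus strand), had 49.97, 52.6 and 41.9 CPM in CTL, against 31.7, 31.8 and 32.4 CPM in Nelfb-/- cells (-0.58, SE 0.14, adjusted p = 0.0347, limma). Neither gene's groups overlapped, and their adjusted p was above 0.05 under 7 and 6 of the 14 alternatives. For Slc25a42 these include every library left out except CTL replicate 3, with an adjusted p from 0.0617 without Nelfb-/- replicate 1 to 0.135 without CTL replicate 1, and for Slc25a16 the loss of CTL replicate 1 (0.136), CTL replicate 2 (0.142), Nelfb-/- replicate 2 (0.108) or Nelfb-/- replicate 3 (0.135).

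Slc25a51, the NAD+ carrier, was the most abundant of these 8 genes in CPM, with 237, 256 and 182 CPM in CTL, against 187, 162 and 159 CPM in Nelfb-/- cells. CTL replicate 3 lay just below Nelfb-/- replicate 1, and the gene did not pass (log2 fold change -0.40, adjusted p = 0.168, limma). Slc25a33 and Slc25a36 encode carriers of pyrimidine nucleotides. Slc25a33 had 25.5, 31.2 and 18.8 CPM in CTL, against 17.5, 13.4 and 11.9 CPM in Nelfb-/- cells, which did not overlap (log2 fold change -0.81, adjusted p = 0.0722, limma), and without CTL replicate 3 it passed the threshold (adjusted p = 0.0296). Slc25a36 had 76.9, 96.9 and 68.0 CPM in CTL, against 94.5, 70.8 and 74.5 CPM in Nelfb-/- cells. These overlapped fully, with a log2 fold change of -0.01 (SE 0.19, adjusted p = 0.984, limma). The carriers of folate (Slc25a32) and of S-adenosylmethionine (Slc25a26) and the peroxisomal carrier Slc25a17 did not pass, with log2 fold changes of -0.37, -0.21 and -0.43. Lrig1, which overlaps Slc25a26 on the other strand, had 73.2 to 109 CPM, well above the 7.92 to 12.6 CPM of Slc25a26.

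Of the 4 genes for phosphate and carboxylates, 0 passed with limma or with voom weights and 2 had an unadjusted p under 0.05 (32.5% of all genes tested), and all 4 had negative log2 fold changes. Slc25a1, the citrate carrier that supplies cytosolic acetyl-CoA for lipid synthesis, had 405, 341 and 346 CPM in CTL, against 182, 295 and 239 CPM in Nelfb-/- cells. The groups did not overlap (log2 fold change -0.63, SE 0.21, adjusted p = 0.0905, limma). Of the enzymes on either side of it, Cs, which makes citrate in the matrix, was downregulated (-1.11, SE 0.18, adjusted p = 0.0123, limma), and Acly, which splits citrate in the cytosol, was upregulated (2.62, SE 0.66, adjusted p = 0.0435, limma). The call of Acly was lost with voom weights (adjusted p = 0.0502, limma). Slc25a3, the phosphate carrier that serves ATP synthesis, had 245, 282 and 343 CPM in CTL, against 223, 200 and 200 CPM in Nelfb-/- cells, also without overlap (-0.47, adjusted p = 0.110, limma). The dicarboxylate carrier Slc25a10 had 190, 185 and 129 CPM in CTL, against 95.7, 209 and 166 CPM in Nelfb-/- cells, so that the lowest and the highest library of the gene were both Nelfb-/- libraries (-0.15, SE 0.32, adjusted p = 0.778, limma). Slc25a11, the 2-oxoglutarate carrier, had 66.8, 66.5 and 110.8 CPM in CTL, against 54.3, 74.1 and 67.6 CPM in Nelfb-/- cells, which overlapped (-0.28, adjusted p = 0.463, limma). Rnf167 overlaps Slc25a11 on the other strand and had 15.5 to 32.8 CPM.

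The iron importers, mitoferrin 1 (Slc25a37) and mitoferrin 2 (Slc25a28), did not pass with limma or with voom weights, and 0 of the 2 had an unadjusted p under 0.05. Slc25a37 had 37.8, 44.3 and 22.0 CPM in CTL, against 73.0, 19.5 and 26.9 CPM in Nelfb-/- cells. Nelfb-/- replicate 1 was the highest library and the log2 fold change was 0.02 with an SE of 0.52 (adjusted p = 0.986, limma). That library also had the highest sum of macrophage markers, 4953 CPM, while of 5 erythroid markers only Klf1 was in the table, at 0.0948 to 0.513 CPM. The part of macrophages in the value of Slc25a37 was not tested. Slc25a28 had 42.5, 57.7 and 21.0 CPM in CTL, against 42.8, 21.3 and 22.4 CPM in Nelfb-/- cells, with CTL replicate 3 lowest and the groups overlapping (log2 fold change -0.44, adjusted p = 0.524, limma).

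Of the 3 genes named for their likeness to uncoupling proteins, which carry protons or anions across the inner membrane, 0 passed with limma or with voom weights and 1, Slc25a30, had an unadjusted p under 0.05. Slc25a30 had 32.3, 29.7 and 22.6 CPM in CTL, against 94.9, 45.4 and 49.5 CPM in Nelfb-/- cells. Its Nelfb-/- libraries were all above its CTL libraries, but the log2 fold change of 1.10 missed the threshold (SE 0.31, adjusted p = 0.0584, limma) and passed it with the replicate number as a block. Slc25a14 was also higher in every Nelfb-/- library, at 1.58, 1.59 and 2.28 CPM in CTL, against 3.03, 2.39 and 2.33 CPM in Nelfb-/- cells (0.51, adjusted p = 0.266, limma). Slc25a27 had 4.33, 4.57 and 0.646 CPM in CTL, against 3.60, 0.640 and 0.694 CPM in Nelfb-/- cells. It was high in CTL replicates 1 and 2 and in Nelfb-/- replicate 1, and low in the other 3 libraries, so that its log2 fold change of -0.97 had an SE of 0.97 (adjusted p = 0.528, limma).

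This arrangement of libraries was seen at genes in and outside the family. At Slc25a23, Slc25a27, Slc25a28 and Slc25a37, Nelfb-/- replicate 1 was at least 1.5-fold above each of the other Nelfb-/- libraries and CTL replicate 3 was at least 1.5-fold below each of the other CTL libraries, on values with the 1-read offset added. These 4 genes are of 39 tested, and 1108 of all 16251 genes tested (6.8%) had the same arrangement. The opposite arrangement, with Nelfb-/- replicate 1 low and CTL replicate 3 high, was found at Slc25a34 and at 1474 genes tested (9.1%). The limit of 1.5-fold was chosen after the values were seen.

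**Figure D3:**
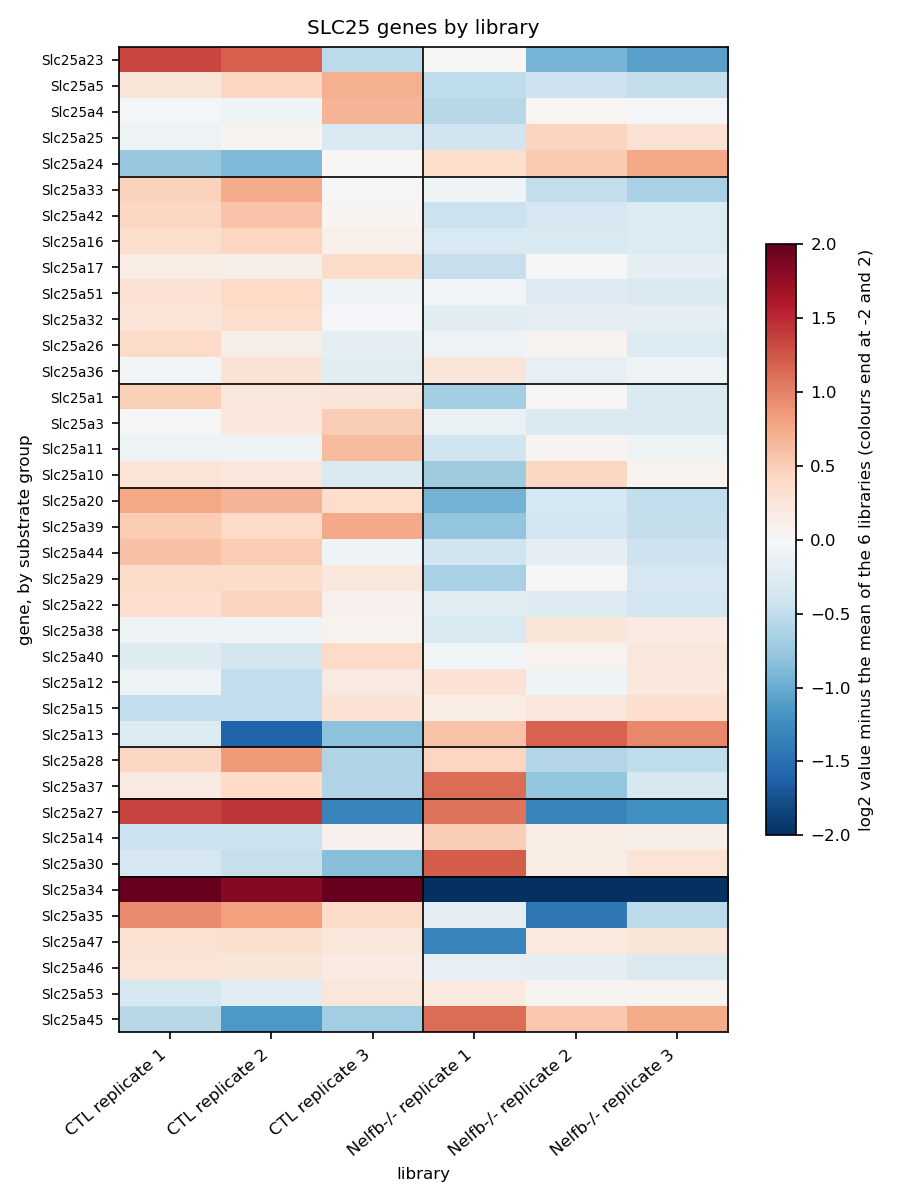
Log2 value of each of 38 SLC25 genes tested (y axis, ordered by substrate group, horizontal lines between groups) in each of the 6 libraries (x axis), minus the mean of the 6, from blue (lower) to red (higher). Slc25a34 reaches the ends of the colour scale in both groups, though not in CTL replicate 2, and Slc25a27 is high in CTL replicates 1 and 2 and Nelfb-/- replicate 1.

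To compare levels between genes, CPM were divided by the length in kilobases (kb) of all exons annotated for a gene in any transcript. A gene whose main transcript leaves out some of these exons gets too low a level, which limits the order between genes. In CTL cells the order was led by Slc25a5 at 235 CPM per kb, Slc25a1 at 168, Slc25a4 at 109, Slc25a39 at 70.5 and Slc25a3 at 52.2. The ranges over the 3 CTL libraries did not overlap between Slc25a5 (200 to 277 CPM per kb) and Slc25a1 (157 to 187), nor between Slc25a1 and Slc25a4 (87.4 to 150). The ranges of Slc25a4 and of Slc25a39 (62.4 to 81.2) also lay apart, whereas that of Slc25a3 (44.1 to 61.7) reached close to Slc25a39 and overlapped that of Slc25a10 (37.3 to 54.9). In Nelfb-/- cells the same 3 genes led by their means, with Slc25a5 at 122 CPM per kb (range 118 to 127), Slc25a1 at 110 (84.3 to 136) and Slc25a4 at 83.3 (63.3 to 95.3). The range of Slc25a1 overlapped those of both Slc25a5 and Slc25a4, so that the order of neighbours among these genes is not beyond their spread. Slc25a34 went from rank 23 of 40 in CTL, at 6.05 CPM per kb, to rank 40 in Nelfb-/- cells, at 0.120. Slc25a24 rose from rank 21 to rank 11, at 7.13 and 14.6 CPM per kb.

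**Figure D4:**
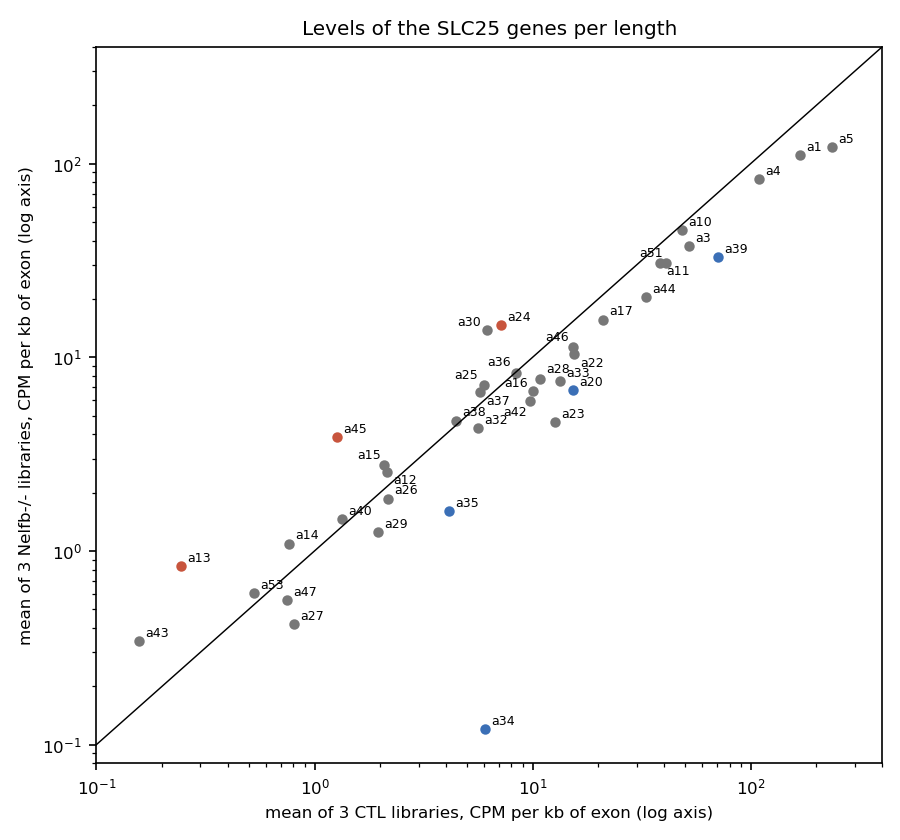
Mean level of each of 39 SLC25 genes in 3 CTL (x axis) and 3 Nelfb-/- libraries (y axis), in CPM per kb of exon, both on log axes, with the symbol shortened to its last part and a line at equal levels. Blue and red points passed the threshold downwards and upwards. Slc25a34 lies farthest from the line, at 6.05 and 0.120 CPM per kb.

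The ratio between close relatives lay apart between the groups for some pairs and not for others. For 10 pairs of close relatives, the log2 ratio of the first gene to the second was compared between groups in each library, with an exact two-sided permutation test. With 3 libraries against 3 this test cannot give a p below 0.1, which is 0.222 after adjustment over the 10 pairs, so no pair could pass 0.05. The ratio did not overlap between groups for 4 pairs, each at that smallest p, and for comparison the groups did not overlap at 38.1% of single genes tested. The log2 ratio of Slc25a34 to Slc25a35 was -0.85, -1.07 and 1.40 in CTL and -5.10, -2.92 and -3.95 in Nelfb-/- cells, a mean change of -3.82. That of Slc25a12 to Slc25a13 was 3.51, 4.45 and 4.32 in CTL and 3.05, 2.06 and 2.58 in Nelfb-/- cells, a change of -1.53. For Slc25a39 to Slc25a40 it was 4.28, 4.25 and 3.89 and then 2.77, 3.05 and 2.81, a change of -1.26. In each of these 3 pairs the mean change was larger than the SD of either group, but this does not set them apart. It was also so for pairs whose groups overlapped, such as Slc25a4 to Slc25a5 (0.56, with SDs of 0.25 in CTL and 0.28 in Nelfb-/- cells).

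The ratio of Slc25a33 to Slc25a36 was -1.59, -1.63 and -1.85 in CTL and -2.43, -2.40 and -2.65 in Nelfb-/- cells, a change of -0.80, although neither gene passed the threshold alone. The other 6 pairs overlapped between groups. The ratio of Slc25a23 to Slc25a24 had the largest mean change among them, -2.42, from 2.18, 2.18 and -0.45 in CTL to -0.23, -1.36 and -1.75 in Nelfb-/- cells, and only CTL replicate 3 overlapped. Slc25a4 to Slc25a5 changed by 0.56, Slc25a24 to Slc25a25 by 0.85, Slc25a14 to Slc25a30 by -0.59, Slc25a28 to Slc25a37 by -0.46 and Slc25a10 to Slc25a11 by 0.13. A change that misses the test does not show that 2 genes moved alike. The number of pairs without overlap was 8 without CTL replicate 3 and 7 without Nelfb-/- replicate 2.

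**Figure D5:**
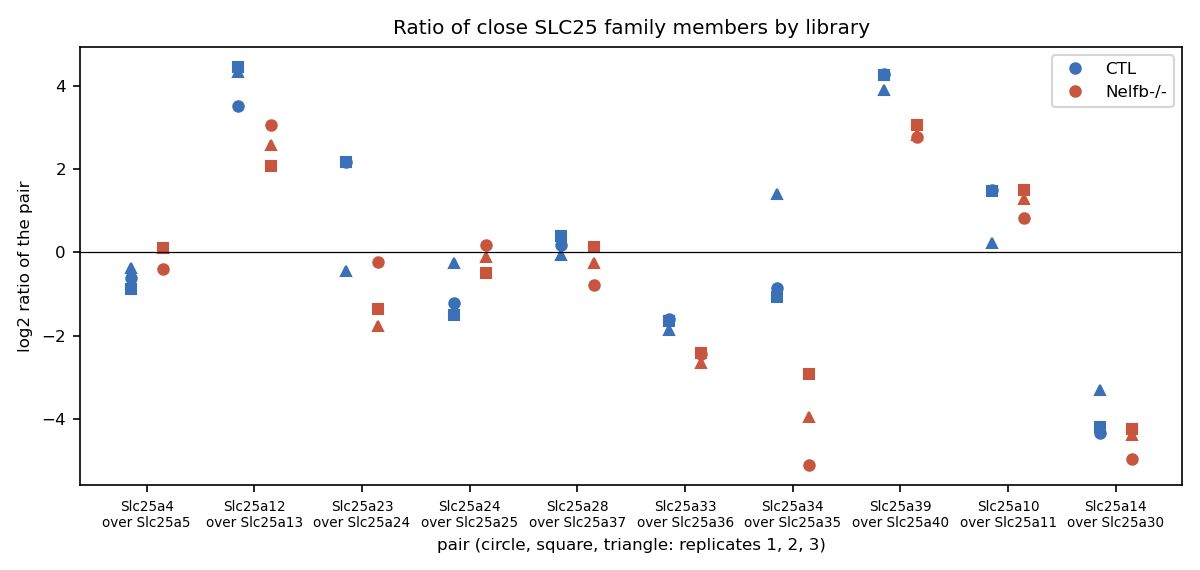
Log2 ratio of the first to the second gene of 10 pairs of close SLC25 relatives (x axis) in each CTL (blue) and Nelfb-/- (red) library. Circles, squares and triangles are replicates 1, 2 and 3, and the groups lie apart for Slc25a12 over Slc25a13, Slc25a33 over Slc25a36, Slc25a34 over Slc25a35 and Slc25a39 over Slc25a40.

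Other mitochondrial genes were counted in the same way to set the family beside them. Of 4 genes of the same superfamily that bear other symbols (Ucp2, Ucp3, Mtch1 and Mtch2), 0 passed the threshold with limma or with voom weights, 2 had an unadjusted p under 0.05, and Mtch2, an outer membrane member, had an adjusted p of 0.0250 under 2-fold (log2 fold change -0.62). Of 17 transporters of the inner membrane from other families, Abcb8 was downregulated (-1.18) and Sfxn3 was upregulated (1.23), where 3.64% and 7.58% of all genes tested were, with a median over the list of -0.12. Of 13 genes for the machinery that brings carriers into the inner membrane, 0 passed the threshold with limma or with voom weights, 3 had an unadjusted p under 0.05 (32.5% of all genes tested), 2 (Timm8b and Tomm20) were lower at an adjusted p of at most 0.05 under 2-fold, and the median was -0.12. All 8 genes chosen for outer membrane pores and mitochondrial mass had negative log2 fold changes, as had 45.4% of all genes tested. Their median was -0.43, and 1 of them, Cs, passed the threshold downwards, where 3.64% of all genes tested did. The median of the 16 enzymes that make or use what the carriers move was -0.42. Of these, Cs (which is in both lists), Cpt1b and Crat were downregulated (3.64% of all genes tested) and Acly and Cpt1a were upregulated (7.58%). With voom weights 4 of these 5 passed, and Acly did not (adjusted p = 0.0502). No difference between these lists and the SLC25 genes was tested.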

How the data were processed

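Total RNA of 3 CTL and 3 Nelfb-/- cultures was sequenced by the authors. Their deposited table holds CPM per gene, with an offset of 0.0001 CPM added to each value and no correction for length, and 0 of its value columns were of no sample. Submitters' processing notes name STAR 2.7, Partek 9.0.20.0202 and mm10. The methods state that genes under 10 reads were left out. How reads of copies or opposite strands were counted is not given in the sources used here.

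The step between low values gave the depth of each library. Between 70.0% and 72.7% of values up to 20 reads were whole within 0.02, so no count test was run. After the offset was subtracted, each value was put on a depth of 22.33 M reads (M, 1e+06), and log2(value + 1) was fitted across all genes with limma 3.58.1 (R 4.3.3) with an abundance trend. The pseudocount of 1 read understates the change of low genes. The fit was tested on simulated data. Gene positions and exon lengths are from GENCODE vM21 (GRCm38), in which 17551 of 17924 genes matched by name and 98.9% of these had the same start and end. All SLC25 genes enter the counts over the family, and 1 of them, whose own values are not reported here, was left out of the substrate groups and figures. Among the others, full values were given to those past the threshold or with an adjusted p of at most 0.05, to the most abundant of each substrate group and to pairs of relatives, and of the other lists, written from general knowledge, those past the threshold were named. The alternatives were 2 other filters on low values, pseudocounts of 5 reads and 1 CPM, scaling by the median of ratios, limma without the trend and with voom weights, the replicate number as a block, and each library left out in turn. The members, lists and alternatives were chosen with earlier results of these data known, and the alternatives for pairs were added after the data were seen. The figures used matplotlib 3.10.9.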

Additional observations from a re-analysis of the deposited data

How the results depend on the processing

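In 14 alternatives the median log2 fold change of the SLC25 genes tested lay between -0.49 and -0.40, and of 182 values for 13 single genes 0 changed direction, 126 stayed on their side of the limits and 56 did not. Without the abundance trend, 7 SLC25 genes had an adjusted p of at most 0.05 instead of 13, and the cause was not tested. With each library left out in turn, the number past the threshold was 1 to 9 (lower 1 to 6, higher 0 to 3), the number at an adjusted p of at most 0.05 was 1 to 19, and the number of pairs of relatives without overlap was 4 to 8. Fewer libraries remain in these fits, and over all genes tested they gave 136 to 776 lower and 290 to 1704 higher genes. Scaling by the median of ratios moved the median of all genes from 0.07 to 0.00 and that of the SLC25 genes to -0.49. With the replicate number as a block, 5 SLC25 genes were lower and 4 higher, and Slc25a23 and Slc25a30 were added to the 7 called. Deviations from the group means correlated at 0.515, -0.395 and 0.518 between libraries of the same number. Not every library correlated best with its own number. With 3 libraries per group, of which CTL replicate 3 and Nelfb-/- replicate 1 stood apart, this cannot settle whether libraries of the same number were paired. The depth limits Slc25a13, Slc25a14, Slc25a27, Slc25a43, Slc25a47 and the Nelfb-/- values of Slc25a34, which rest on 3 to 98 reads per library, and to a lesser degree Slc25a29 and Slc25a53 (54 to 154 reads).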
